A study of Homo sapiens with 4 samples.

Results

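The genes described here are the enzymes and regulators with which cells make cholesterol and fatty acids, as they were measured in MV4-11 cells with and without knockdown of ANP32B. A list of 32 gene symbols was used. Membership was set by the function of each gene, with earlier results of these data known, and 30 of the 32 genes were among the 18885 genes of the deposited table. HSD17B7 and ELOVL6 were not analysed here. All 30 genes passed the filter on low values.

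Cholesterol is built from acetyl-CoA. The mevalonate steps join and reduce acetyl units and yield the isoprenoid farnesyl diphosphate, which is condensed to squalene. Squalene is then oxidised, closed to lanosterol and trimmed step by step to cholesterol. Fatty acids branch off the same acetyl-CoA pool through ACLY, ACACA and FASN. Most of these genes are targets of the sterol regulatory element-binding proteins SREBP1 and SREBP2, which SCAP escorts out of the endoplasmic reticulum when sterols are scarce and which INSIG proteins hold back when sterols are plentiful. Leukemic cells use both pathways to build membranes.

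MV4-11 is an established human AML cell line of myelomonocytic type that carries an MLL rearrangement. RNA-seq compared cells with an shRNA against ANP32B (sh-ANP32B, 2 libraries) with control cells (2 libraries), which are called sh-NC here. Per the labels the controls were untreated and held no shRNA, whereas the study describes an sh-NC hairpin and selection with puromycin. If the controls held none, effects of transduction and selection cannot be told apart from those of the knockdown. The columns of the control libraries are marked NC and the others S3, a mark that the labels do not explain, and the S3 columns were taken as sh-ANP32B because no other group was left. Which hairpin was used is not stated. Nothing says that libraries of a group came from separate cultures, so p-values measure only the spread between these libraries.

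Values are TPM, read density per gene length scaled to a common total, so levels can be set side by side between genes. TPM keep no read numbers, and the depth of each library is unknown. ANP32B, the targeted gene, had 358 and 364 TPM in the controls and 54.1 and 49.3 TPM after knockdown, which left 14.3% of the control mean. The 16937 genes that reached 1 TPM in 2 or more libraries were tested with limma on log2(TPM + 1). The log2FC given below is the difference on that scale, knockdown minus control. A gene was called where limma's p, adjusted over all genes by the Benjamini-Hochberg method, was under 0.05 and the log2FC was beyond 0.5 in either direction (the fold limit). An exact permutation test of 2 libraries against 2 cannot reach a p under 0.333, so the adjusted p depends on limma's pooling of variance over genes. Lists that mark cell state also differed between the groups. The summed level of 11 monocyte and macrophage markers was 779 and 772 TPM in the controls and 6542 and 6491 TPM after knockdown. Of the 11, 10 were called higher and CSF1R was not. LYZ made up most of the sum, with 471 and 463 TPM in the controls and 5308 and 5260 TPM after knockdown. S100A8 and S100A9 were under 1 TPM in both controls. They passed the filter only through the knockdown libraries, so their calls add no support. CD14, MPEG1, CD163 and VCAN were not analysed here. All 10 proliferation markers were called lower, and their sum was 2194 and 2218 TPM against 1059 and 1071 TPM. The part of these shifts in the values below was not tested. In bulk RNA, fewer cells of a type and less RNA per cell cannot be told apart. Of 5 genes that mark the cell line, CD33, FLT3, HOXA9, MEIS1 and KMT2A were all detected, with a summed level of 308 and 319 TPM against 305 and 301 TPM, and MEIS1 was called lower.

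Of the 30 genes, 12 rose after ANP32B knockdown and 0 fell. Across all genes tested, 17.9% were called higher and 10.1% were called lower, so the share of the pathway called higher, 40.0%, was above the background and the share called lower was below it. The 12 genes were HMGCS1, MVK, MVD, IDI1, LSS, MSMO1, SC5D, DHCR7, INSIG1, STARD4, FADS2 and ACSL1. With no fold limit, 19 genes were higher against a background of 26.0%, and 1 gene, FASN, was lower against 19.7%. A fold limit of 1 left 4 genes higher, MVD, LSS, MSMO1 and SC5D, against a background of 6.71%, and 0 lower against 1.61%. The study's cutoffs are an unadjusted p under 0.05 and the same fold limit. Applied to limma's p in place of the study's DESeq2 test, they gave 12 genes higher against 20.2% and 0 lower against 10.8%. The 17 cholesterol enzymes had a median log2FC of 0.40 and the 8 fatty acid genes had a median of 0.10. The latter ranged from 0.0068 to 0.21 when 1 library was left out, lowest without sh-ANP32B library 1 and highest without sh-ANP32B library 2. The median of all genes tested was 0.079. These counts and medians describe the lists and are not tests of them.

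**Figure D1:**
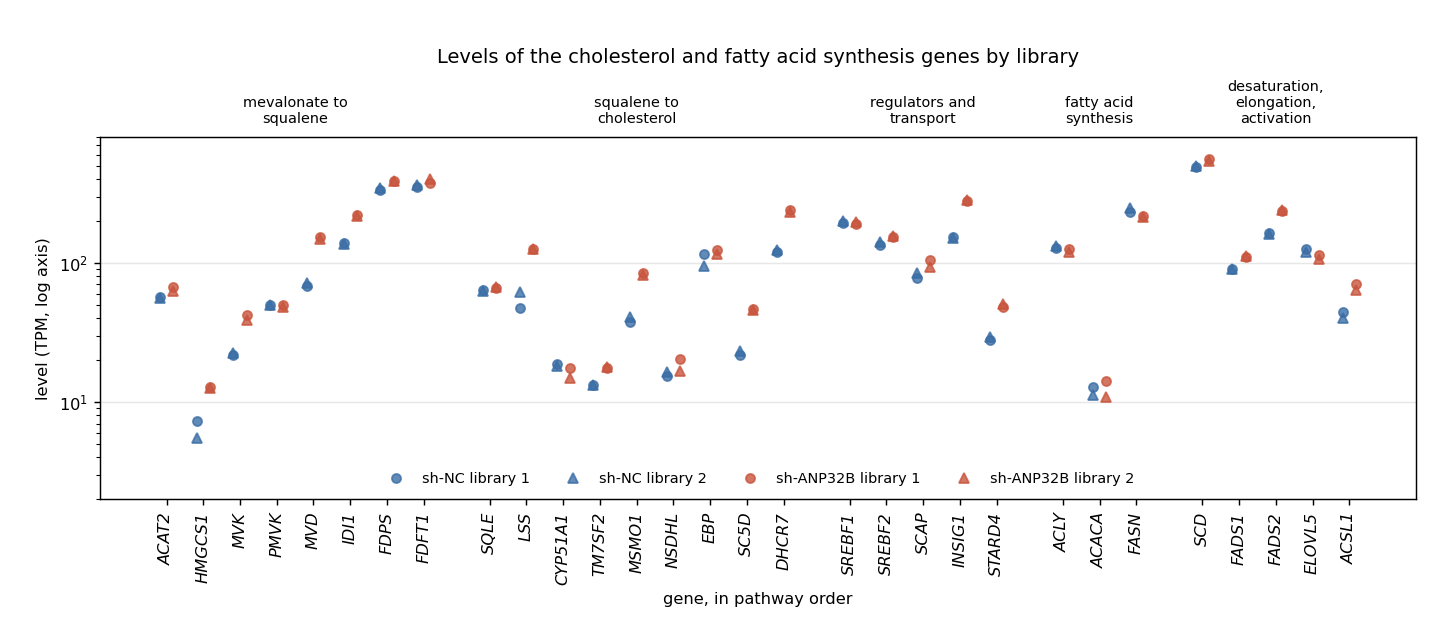
Level of each of the 30 genes in each library, in TPM on a log axis, with the genes in pathway order and sh-NC (blue) beside sh-ANP32B (red); circles are library 1 and triangles library 2 of a group. Levels run from 5.48 TPM for HMGCS1 in an sh-NC library to 560.0 TPM for SCD in an sh-ANP32B library, and the red points of MVD, LSS, MSMO1, SC5D and DHCR7 stand clear above the blue ones.

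Among the 8 genes of the mevalonate steps, 4 rose, and the other 4 were not called. MVD, which decarboxylates mevalonate diphosphate to the first isoprenoid, rose most. It spans 88651935 to 88663161 on chromosome 16 in hg38, the build of all positions given here, and is read from the minus strand. Its level was 68.8 and 71.2 TPM in the controls and 155 and 148 TPM after knockdown. This was a log2FC of 1.10 (SE 0.048, limma adjusted p = 1.15e-04), far beyond the spread between replicates. HMGCS1, the cytosolic synthase that makes HMG-CoA, spans 43287470 to 43313512 on chromosome 5 and was the lowest expressed of the 30 genes. Its level was 7.34 and 5.48 TPM in the controls and 12.9 and 12.6 TPM after knockdown, and the log2FC was 0.91 (SE 0.154, limma adjusted p = 0.0061). The sh-NC libraries differed more from each other than the sh-ANP32B libraries, yet the groups did not overlap. The groups also did not overlap for 12645 of the 16937 genes tested, so this alone says little. HMGCS1 shares 2497 of its 6627 exonic bases with a lncRNA on the opposite strand, and the library kit does not mark strand, so its value is uncertain.

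MVK, the kinase that first phosphorylates mevalonate, spans 109573255 to 109598125 on chromosome 12. It had 21.6 and 22.4 TPM in the controls against 42.5 and 38.7 TPM after knockdown, a log2FC of 0.85 (SE 0.076, limma adjusted p = 6.38e-04). IDI1, which interconverts the isoprenoid isomers, spans 1039152 to 1049119 on chromosome 10. It had 139 and 136 TPM against 221 and 217 TPM, a log2FC of 0.67 (SE 0.039, limma adjusted p = 2.16e-04). For MVK and IDI1 alike, both knockdown libraries were above both control libraries. PMVK, which adds the next phosphate after MVK, had 49.8 and 50.1 TPM in the controls and 49.8 and 48.3 TPM after knockdown, and the groups overlapped. The 95% confidence interval of its log2FC, from -0.16 to 0.11, lay inside the fold limit. MVK and MVD, the steps on either side of PMVK, were thus called while PMVK was not.

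The other 3 genes of this stretch were not called. FDPS, which makes farnesyl diphosphate, had 333 and 345 TPM in the controls and 388 and 386 TPM after knockdown (log2FC 0.19, limma adjusted p = 0.0099). FDFT1, the squalene synthase, had 349.7 and 366 TPM against 373 and 399 TPM (log2FC 0.11, limma adjusted p = 0.118). After SCD, FDFT1 and FDPS were the most highly expressed of the 30 genes. ACAT2, the cytosolic thiolase that begins the pathway, had 57.1 and 55.5 TPM against 66.8 and 63.2 TPM (log2FC 0.20, limma adjusted p = 0.030). ACAT2 and FDPS passed the adjusted p but lay inside the fold limit. With median-of-ratios scaling their adjusted p was 0.144 and 0.0556. FDPS has 8 named pseudogenes and IDI1 has 3, and how reads shared with them were counted is not stated, which makes both values uncertain.

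Among the 9 genes from squalene to cholesterol, 4 rose, and they were spread along the stretch. LSS, which closes squalene epoxide to lanosterol, had the highest log2FC of all 30 genes. It spans 46188141 to 46228824 on chromosome 21, minus strand. Its level was 47.7 and 62.1 TPM in the controls and 127 and 126 TPM after knockdown, and the log2FC was 1.20 (SE 0.120, limma adjusted p = 9.49e-04). The control libraries of LSS lay apart, and without sh-NC library 1 or 2 the log2FC was 1.01 or 1.39. MSMO1, the C4-methyl sterol oxidase, spans 165327667 to 165343164 on chromosome 4. It had 37.5 and 40.9 TPM against 84.5 and 81.3 TPM, a log2FC of 1.06 (SE 0.064, limma adjusted p = 2.29e-04).

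SC5D and DHCR7 act at the end of the route, where they place and then remove double bonds of the sterol ring. SC5D, spanning 121292681 to 121313410 on chromosome 11, had 21.7 and 23.4 TPM in the controls and 46.3 and 46.2 TPM after knockdown. Its log2FC was 1.00 (SE 0.068, limma adjusted p = 2.96e-04). DHCR7, spanning 71428193 to 71452868 on chromosome 11, had 121 and 123 TPM against 241 and 231 TPM, a log2FC of 0.95 (SE 0.042, limma adjusted p = 1.17e-04). In each of these pairs the libraries of a group lay close together and the groups were far apart. DHCR7 added 114 TPM to the summed level of the cholesterol enzymes, the most of any of them, which was 20.8% of the whole difference.

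The other 5 genes of this stretch were not called. SQLE, the squalene epoxidase and a known rate-limiting step, had 63.4 and 62.3 TPM in the controls and 65.8 and 67.4 TPM after knockdown. Its log2FC was 0.083 (limma adjusted p = 0.215) with an interval from -0.04 to 0.21, below the fold limit. CYP51A1, the lanosterol demethylase, had 18.7 and 18.2 TPM against 17.4 and 14.8 TPM (log2FC -0.19, limma adjusted p = 0.193). It shares 2844 of its 4171 exonic bases with ENSG00000285772, a gene on the same strand, and has 3 named pseudogenes, so this value is uncertain. TM7SF2, a sterol reductase, had 13.2 and 13.3 TPM against 17.6 and 17.9 TPM (log2FC 0.40, limma adjusted p = 0.0138), with groups that did not overlap but a change inside the fold limit. NSDHL and EBP, a dehydrogenase and an isomerase of the sterol ring, had log2FC values of 0.21 (limma adjusted p = 0.206) and 0.18 (limma adjusted p = 0.183). For EBP the groups overlapped, with 117 and 95.6 TPM against 124 and 116 TPM. EBP shares 644 of its 1768 exonic bases with ENSG00000286268 on the same strand, so its value is uncertain as well. SQLE and CYP51A1 were thus within the fold limit on either side of LSS, which had the largest change.

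**Figure D2:**
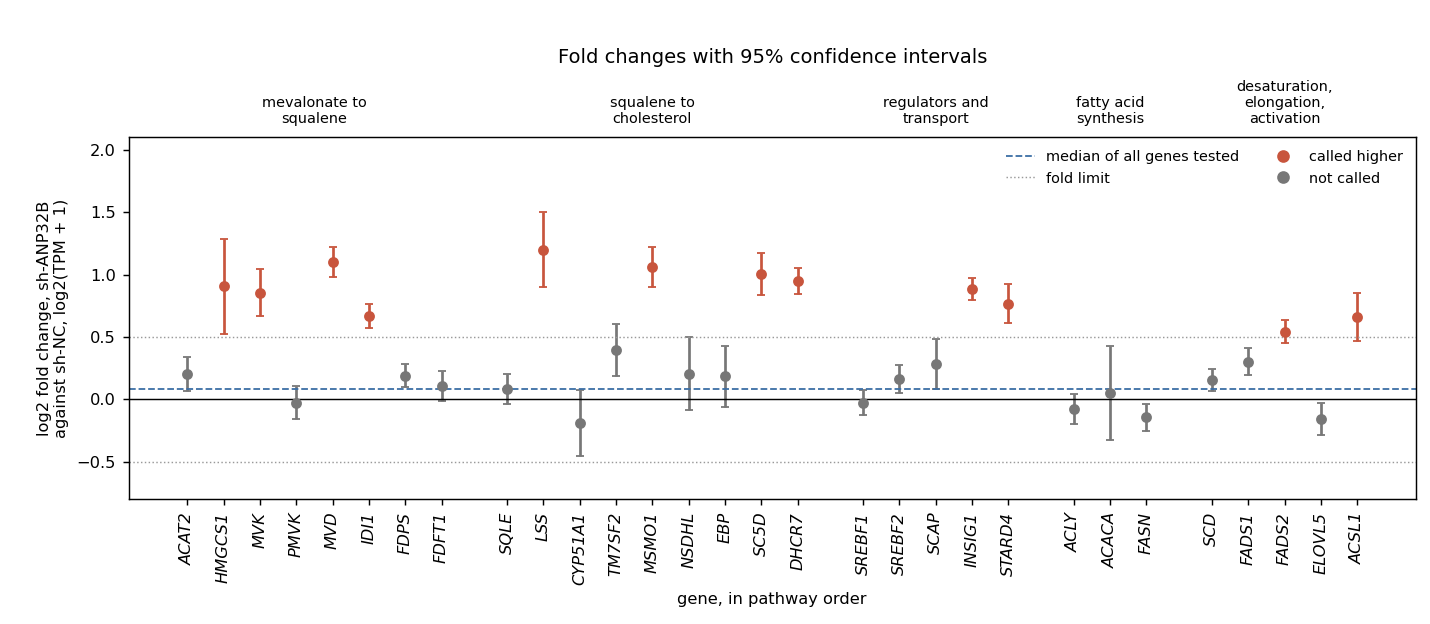
Log2FC of each gene, sh-ANP32B against sh-NC on log2(TPM + 1), as points with 95% confidence intervals from limma, in pathway order; red points were called higher, grey points were not called, the dashed line is the median of all genes tested and the dotted lines are the fold limit of 0.5. The 12 red points lie between 0.54 (FADS2) and 1.20 (LSS), and the 18 grey points lie between -0.19 (CYP51A1) and 0.40 (TM7SF2).

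Of the 5 regulators and transporters, INSIG1 and STARD4 rose. INSIG1, the protein that retains the SREBP escort SCAP when sterols are plentiful, spans 155297776 to 155310235 on chromosome 7. It had 153 and 152 TPM in the controls and 281 and 285 TPM after knockdown. This was a log2FC of 0.88 (SE 0.037, limma adjusted p = 1.05e-04). STARD4, a carrier of cholesterol between membranes, spans 111496033 to 111512590 on chromosome 5 and had 28.0 and 29.3 TPM against 48.3 and 50.6 TPM (log2FC 0.77, SE 0.063, limma adjusted p = 5.08e-04). For both genes the replicates nearly coincided. The genes of the transcription factors themselves, and of SCAP, were not called. SREBF2, which encodes SREBP2, had 135 and 142 TPM in the controls and 155 and 155 TPM after knockdown (log2FC 0.16, limma adjusted p = 0.0328). SREBF1, which encodes SREBP1, had 195 and 199.5 TPM against 190.4 and 197 TPM, and its groups overlapped (log2FC -0.027, limma adjusted p = 0.622). SCAP had 77.9 and 85.0 TPM against 106 and 93.0 TPM (log2FC 0.28, limma adjusted p = 0.0334). With median-of-ratios scaling the limma adjusted p was 0.179 for SREBF2 and 0.0813 for SCAP. RNA levels do not show how much SREBP protein is cleaved and active, which was not measured here.

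Stretches before the starts of 6 sterol genes are shown, 5 of them from the sterol genes that rose. SREBF2 is shown because it was the only matched gene with the sterol regulatory element in the form searched. RefSeq promoter sequences on GRCh38.p14 matched 26 of the 30 genes. The 250 bases before the RefSeq start were searched on both strands for the sterol regulatory element TCACNCCAC, the E-box CACGTG and the CCAAT box CCAAT, motifs that do not contain each other. Capitals mark every match in the stretch shown, with ATTGG being the CCAAT box read on the opposite strand. Some matches nearer the start are cut off, namely the E-box of INSIG1 at 55 bases and a CCAAT box of HMGCS1 at 100 bases. Each of the 5 genes shown that rose held a CCAAT box. IDI1 also rose, is not shown and held no match. Each stretch is written 5′ to 3′ on the strand of its gene and ends before both the RefSeq start and the outermost GENCODE start.
HMGCS1, minus strand, chr5:43313513-43313662: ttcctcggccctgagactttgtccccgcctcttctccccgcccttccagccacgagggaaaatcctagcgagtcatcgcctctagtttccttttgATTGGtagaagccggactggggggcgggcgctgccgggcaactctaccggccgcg
MVD, minus strand, chr16:88663162-88663341: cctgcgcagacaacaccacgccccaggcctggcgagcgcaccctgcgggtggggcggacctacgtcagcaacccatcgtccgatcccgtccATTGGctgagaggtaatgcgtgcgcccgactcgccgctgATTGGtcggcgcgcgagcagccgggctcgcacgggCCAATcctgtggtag
LSS, minus strand, chr21:46228825-46229024: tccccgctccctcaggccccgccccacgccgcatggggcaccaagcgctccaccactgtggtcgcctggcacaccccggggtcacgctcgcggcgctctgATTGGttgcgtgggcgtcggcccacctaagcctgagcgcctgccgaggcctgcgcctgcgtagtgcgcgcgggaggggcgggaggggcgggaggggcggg
MSMO1, plus strand, chr4:165327419-165327666: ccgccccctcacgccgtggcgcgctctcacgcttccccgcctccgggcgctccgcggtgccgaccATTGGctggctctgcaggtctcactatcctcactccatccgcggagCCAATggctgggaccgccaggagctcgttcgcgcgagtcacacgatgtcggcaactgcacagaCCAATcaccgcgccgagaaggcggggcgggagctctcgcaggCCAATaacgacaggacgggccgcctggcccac
INSIG1, plus strand, chr7:155297628-155297775: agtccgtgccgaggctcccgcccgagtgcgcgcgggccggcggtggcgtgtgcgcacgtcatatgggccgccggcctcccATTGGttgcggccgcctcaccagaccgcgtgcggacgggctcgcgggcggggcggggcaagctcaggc
SREBF2, plus strand, chr22:41832855-41833104: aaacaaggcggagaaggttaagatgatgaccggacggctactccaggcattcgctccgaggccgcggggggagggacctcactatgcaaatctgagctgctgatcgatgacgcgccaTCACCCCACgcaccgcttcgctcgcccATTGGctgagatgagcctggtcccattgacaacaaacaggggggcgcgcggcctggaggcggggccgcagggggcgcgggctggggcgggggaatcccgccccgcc

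The CCAAT box, which the factor NF-Y binds, was found before 17 of the 26 genes (65.4%), and before 34.9% of the 10015 matched promoters of genes tested. It was found before 9 of the 12 genes that rose and before 8 of the 14 genes that were not called. MSMO1 held 4 copies, at 185, 139, 76 and 34 bases before the start, and MVD held 3. LSS held a copy 150 bases before the start and INSIG1 held a copy 170 bases before it. The sterol regulatory element in the form searched was found before SREBF2, 133 bases from the start, and before none of the 12 genes that rose. Its share among promoters of genes tested was 0.849%. E-boxes were found before SC5D, SCAP, INSIG1 and ELOVL5, that is 15.4% of the 26 genes against 9.31% of the promoters of genes tested. A match is a run of letters in this window and not a measured binding site. The RefSeq start lay within 100 bases of the outermost GENCODE start for 14 of the 26 genes. For FADS2, IDI1 and DHCR7, which rose, the distance was 23223, 7585 and 4475 bases. The window may therefore not hold the promoter in use.

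The fatty acid genes had a lower median log2FC than the cholesterol enzymes, a difference that was not tested. None of the 3 genes of fatty acid synthesis was called. FASN, the multienzyme that builds palmitate, had 232 and 246 TPM in the controls and 218 and 214 TPM after knockdown (log2FC -0.14, limma adjusted p = 0.0442), with groups that did not overlap. ACLY, which supplies cytosolic acetyl-CoA from citrate, had 128 and 132 TPM against 127 and 120.2 TPM (log2FC -0.077, limma adjusted p = 0.236). ACACA, the carboxylase that makes malonyl-CoA, had 12.7 and 11.2 TPM against 14.2 and 10.9 TPM, and its groups overlapped (log2FC 0.052, limma adjusted p = 0.805). The adjusted p of FASN passed 0.05 under 5 of 11 other settings, and the sign of ACACA changed under 4 of them.

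FADS2 and ACSL1 rose among the 5 genes of desaturation, elongation and activation. FADS2, the delta-6 desaturase, spans 61792980 to 61867354 on chromosome 11, plus strand. It had 164 and 162 TPM in the controls and 236 and 239 TPM after knockdown, a log2FC of 0.54 (SE 0.037, limma adjusted p = 3.12e-04). With median-of-ratios scaling its log2FC was 0.46, inside the fold limit. Its neighbour FADS1, the delta-5 desaturase, is read from the opposite strand (61799627 to 61829318). FADS1 had 89.8 and 91.1 TPM against 111 and 113 TPM (log2FC 0.30, limma adjusted p = 0.0031). Both desaturases were thus higher in every knockdown library, FADS1 by less than the fold limit. They share 490 exonic bases, whose reads cannot be assigned without strand. ACSL1, an acyl-CoA synthetase that activates long-chain fatty acids, spans 184755595 to 184826818 on chromosome 4 and had 44.5 and 40.1 TPM against 70.5 and 64.2 TPM (log2FC 0.66, SE 0.077, limma adjusted p = 0.0017).

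SCD, the delta-9 desaturase that makes oleate, was the most abundant of the 30 genes. It had 491 and 497 TPM in the controls and 560.0 and 540.4 TPM after knockdown (log2FC 0.15, limma adjusted p = 0.0188; with median-of-ratios scaling adjusted p = 0.187). ELOVL5, which lengthens polyunsaturated fatty acids, had 125 and 120.1 TPM against 113 and 106 TPM (log2FC -0.16, limma adjusted p = 0.0549). Neither was called. The groups did not overlap for either gene, as for most genes tested.

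Summed over the 17 cholesterol enzymes, the level was 1494 ± 18.6 TPM (SD, n = 2) in sh-NC and 2042 ± 16.8 TPM (SD, n = 2) in sh-ANP32B, a ratio of 1.37. The 8 enzymes that were called made up 474 TPM of the control mean and 915 TPM of the knockdown mean. The other 9 made up 1019.6 TPM and 1127 TPM. The 8 fatty acid genes summed to 1294 ± 8.47 TPM (SD, n = 2) and 1429 ± 30.2 TPM (SD, n = 2), a ratio of 1.10. Thus within the control cells the enzymes that were not called had a higher summed level than those that were. Most of the difference between the groups, 441 of 548 TPM, came from the enzymes that were called. The enzymes that were called were picked by this difference, so their sum is a description only.

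**Figure D3:**
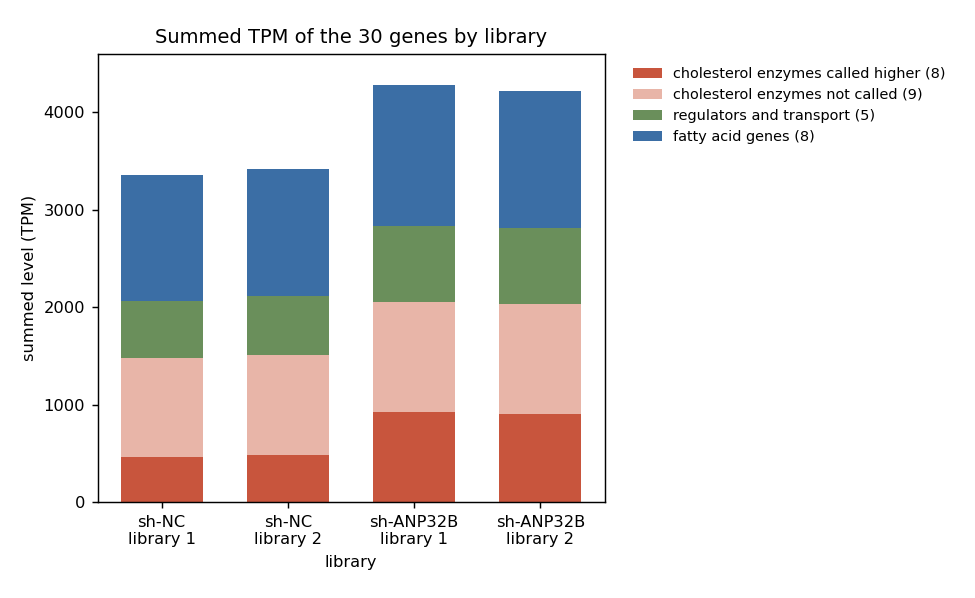
Summed TPM of the 30 genes in each of the 4 libraries as stacked bars from 0, split into cholesterol enzymes called higher, cholesterol enzymes not called, regulators and transport, and fatty acid genes. The full bars reach 3358 and 3415 TPM in the controls and 4284 and 4218 TPM after knockdown, and the lowest segment, the enzymes called higher, grows most.

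Other genes of lipid synthesis were taken from 5 further lists with 55 genes in the table, of which 54 were tested. Of these, 12 rose and 5 fell, that is 22.2% and 9.26%, which is near the 17.9% and 10.1% of all genes tested. Their median log2FC was -0.0073, below that of all genes. Among 12 genes of sterol sensing and SREBP processing, ERLIN2 and RNF145 rose and TMEM97 fell. ERLIN2, a membrane protein of the endoplasmic reticulum that takes part in sterol-dependent degradation, had 42.0 and 41.9 TPM in the controls and 88.6 and 85.9 TPM after knockdown (log2FC 1.04, limma adjusted p = 1.41e-04). TMEM97, a sterol-responsive membrane protein, had 37.7 and 40.3 TPM against 23.3 and 24.5 TPM (log2FC -0.68, limma adjusted p = 0.0011), opposite in direction to INSIG1. RNF145, a sterol-responsive ubiquitin ligase, had a log2FC of 0.53 (limma adjusted p = 8.43e-04). The site proteases that release SREBP, MBTPS1 and MBTPS2, were not called, with log2FC values of 0.33 and -0.017.

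Among 11 genes on branches of the mevalonate pathway, DHDDS and ERG28 rose and PDSS1 fell. DHDDS, a subunit of the transferase that makes dolichol precursors, had 38.3 and 38.4 TPM in the controls and 91.8 and 90.7 TPM after knockdown, a log2FC of 1.23 (limma adjusted p = 9.69e-05). Its partner subunit NUS1 had 42.8 and 42.2 TPM against 42.2 and 45.3 TPM and was not called. ERG28, a scaffold for the enzymes that remove C4 methyl groups from sterols, had 26.0 and 25.6 TPM against 54.5 and 51.7 TPM (log2FC 1.01, limma adjusted p = 2.33e-04). PDSS1, which makes the side chain of coenzyme Q, had a log2FC of -0.55 (limma adjusted p = 0.0026).

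All 3 called genes of the supply of acetyl-CoA and NADPH rose, of 4 tested. ACSS2, which makes cytosolic acetyl-CoA from acetate, had 22.1 and 24.2 TPM in the controls and 47.2 and 43.8 TPM after knockdown (log2FC 0.95, limma adjusted p = 5.12e-04). IDH1, the cytosolic NADPH-forming isocitrate dehydrogenase, had a log2FC of 0.66 (limma adjusted p = 1.70e-04). SLC25A1, the mitochondrial citrate carrier, had a log2FC of 0.53 (limma adjusted p = 5.01e-04). The fourth gene, the mitochondrial thiolase ACAT1, had a log2FC of -0.18 and was not called.

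In the list of fatty acid synthesis and modification, 15 of 16 genes were tested, 2 rose and 3 fell, with a median log2FC of -0.24. The genes that fell were HACD1 (-0.80), SCD5 (-0.65) and HSD17B12 (-0.51), which encode a dehydratase of the elongation cycle, a further stearoyl-CoA desaturase and a reductase of the elongation cycle. HACD4 (0.76) and ELOVL1 (0.60), a further dehydratase and the elongase of saturated very long chains, rose. SCD5 had 32.2 and 31.6 TPM in the controls and 18.8 and 21.2 TPM after knockdown, and SCD was far more abundant in every library.

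Of 12 genes of cholesterol storage and transport, LIPA, NPC2 and STARD5 rose and 0 fell. LIPA, the lysosomal acid lipase that frees cholesterol from its esters, had 22.1 and 22.5 TPM against 49.7 and 47.1 TPM (log2FC 1.08, limma adjusted p = 2.29e-04). NPC2, the lysosomal cholesterol carrier, had 266 and 268 TPM against 459.7 and 448 TPM (log2FC 0.76, limma adjusted p = 1.33e-04). LIPA and NPC2 are lysosomal genes that monocytes also express, and the monocyte marker sum given above moved in the same direction. A link between these was not tested. STARD5, a sterol carrier, had a log2FC of 0.65 (limma adjusted p = 0.0085). The median log2FC of this list was -0.12.

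**Figure D4:**
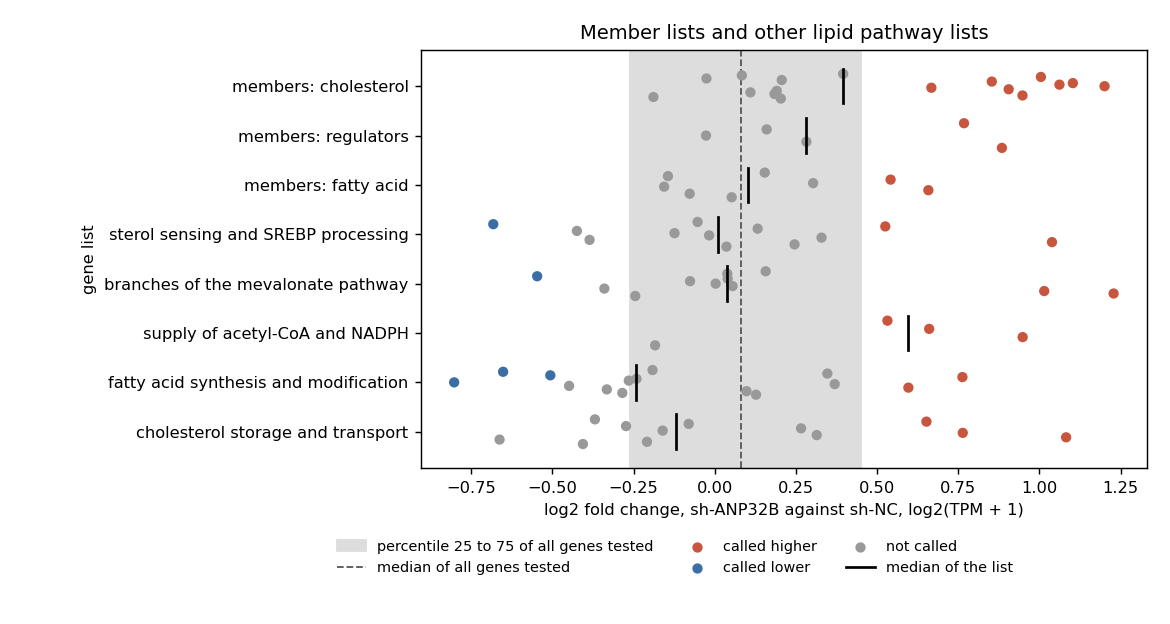
Log2FC of each tested gene, sh-ANP32B against sh-NC on log2(TPM + 1), by gene list; red was called higher, blue called lower and grey not called, the black bars are list medians, the grey band spans percentiles 25 to 75 of all genes tested (-0.26 to 0.45) and the dashed line is their median. The median of the cholesterol enzymes, 0.40, lies inside the band above the dashed line, while that of the fatty acid synthesis and modification list, -0.24, lies below the dashed line.

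The 12 calls among the 30 genes stayed at 12 when any of the 4 libraries was left out. Quantile normalization shifted the median of all genes by -0.12 on the log2 scale. It also left 12 of the 30 genes called higher and 0 called lower, with 2208 and 2230 over all 16937 genes tested. Median-of-ratios scaling left 11 higher and 0 lower, with 2508 and 2234 over all genes tested. Relative to the median of all genes, the change of LSS was 1.12, that of MVD 1.02, that of INSIG1 0.81 and that of FADS2 0.46. The median of the cholesterol enzymes was 0.32 above that of all genes and the median of the fatty acid genes was 0.024 above it. Without sh-NC library 2 or sh-ANP32B library 1, that is in 2 of 4 cases with 1 library left out, the median of the fatty acid genes (0.064 and 0.0068) was below that of all genes (0.092 and 0.084).

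**Figure D5:**
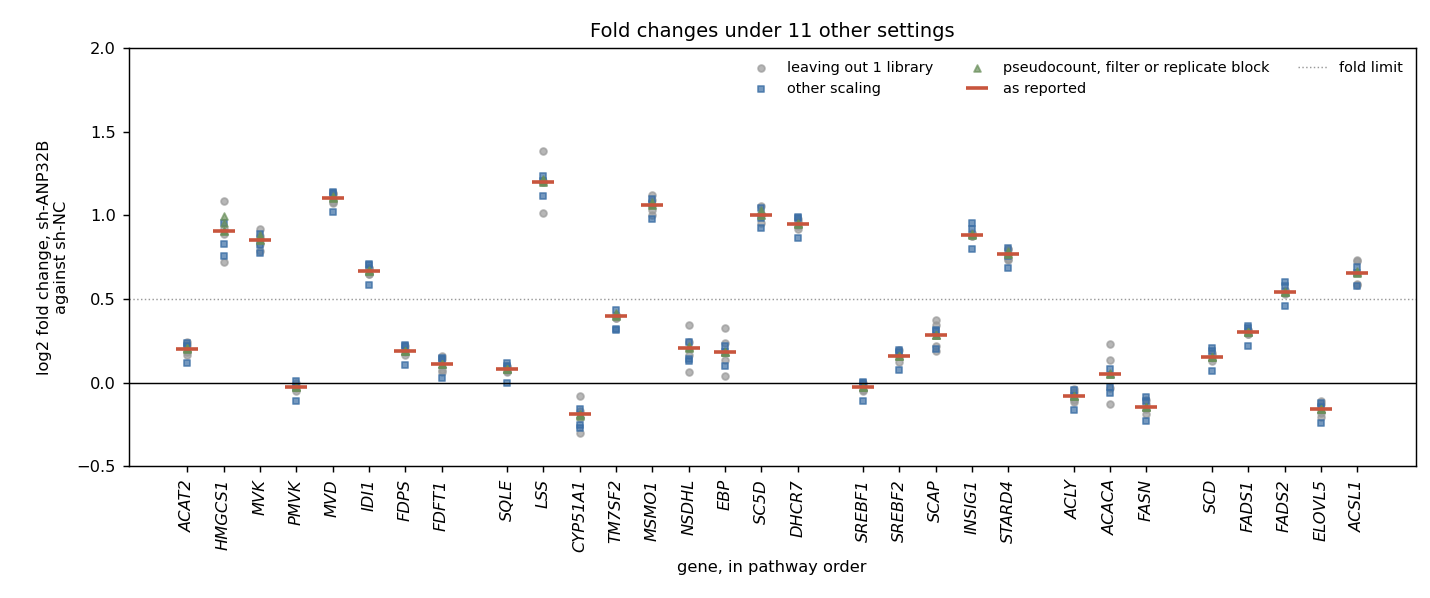
Log2 fold change (log2FC) of each of the 30 genes as reported (red bars) and under 11 other settings, with 1 library left out in grey, another scaling in blue, and another pseudocount, no filter or the replicate block in green; the dotted line is the fold limit of 0.5. FADS2 crosses the limit with median-of-ratios scaling at 0.46, and LSS spreads from 1.01 to 1.39 when a control library is left out.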

How the data were processed

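RNA from MV4-11 cells was sequenced in 2 sh-NC and 2 sh-ANP32B libraries, grouped by their sample titles and matched to the table's columns by name, with the S3 columns taken as sh-ANP32B. Per the labels, total RNA was extracted with Trizol and prepared with an Illumina TruSeq RNA kit, which does not mark strand. Reads were aligned to hg38 with HISAT2 (version 2.0.5), and the authors deposited values that are read here as TPM, since the library totals lie between 997271 and 998546. The quantification tool, annotation and handling of strand are not given in the sources used here. No gene in the table averages under 0.5 TPM. The authors' DESeq2 test needs counts and was not repeated.

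Identifiers were matched to GENCODE 44 symbols and positions, and 17290 of 18885 had a position and 14961 a symbol. limma (version 3.58.1, R 4.3.3; lmFit, eBayes with a trend) was fitted on log2(TPM + 1) without a block, and p-values were adjusted over all 16937 genes tested. The fold limit is the authors' and the adjusted p replaced their unadjusted p. On simulated data the estimated fold changes were centred on the true ones and very few unchanged genes were called, while many genes that were changed were missed, so a gene that is not called may still differ. The 32 genes and the other lists were chosen with earlier results of these data known. Named were all 32 genes, ANP32B, and from each further list the called genes with the 2 highest and 2 lowest fold changes. Other genes were named after their values were seen (MBTPS1, MBTPS2, NUS1, ACAT1, HSD17B12, SLC25A1, STARD5, LYZ, CSF1R, S100A8, S100A9). Alternatives were the replicate block, no filter, pseudocounts of 0.1 and 0.5, 3 scalings, 4 call rules and each library left out. The precision rests on 2 libraries per group, and mitochondrial genes held 15.4% to 15.9% of TPM in sh-NC and 17.4% to 17.6% in sh-ANP32B. Python 3.11.15 with pandas 2.3.3 and matplotlib 3.10.9 was used for tables and plots.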

Additional observations from a re-analysis of the deposited data

How the results depend on the processing

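Of 372 refits of the 30 genes and ANP32B, 362 kept their direction and their call. Genes that were not called and stayed so count as kept. The replicate block and limma's test of changes beyond the fold limit leave each log2FC as it was, so they could not change a direction. Among genes inside the fold limit the adjusted p alone crossed 0.05 more often, for FASN under 6 of 11 settings. The 4 calls lost were HMGCS1, FADS2 and ACSL1 under treat, limma's test of changes beyond the fold limit, and FADS2 with median-of-ratios scaling (0.46). The 6 sign changes were all of genes not called. They were PMVK (0.0077) and SREBF1 (0.0069) when TPM were rescaled without mitochondrial genes, and ACACA with quantile normalization (-0.064), with median-of-ratios scaling (-0.026) and without sh-NC library 2 or sh-ANP32B library 1 (-0.034 and -0.13). Without 1 library, ACACA ranged from -0.13 to 0.23. With no fold limit the counts of members were 19 higher and 1 lower, and with a fold limit of 1 there were 4 higher. For the further lists, treat left 7 higher and 0 lower, a fold limit of 1 left 4 higher and 0 lower, and no fold limit gave 18 higher and 16 lower.

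Over all genes, 1712 were lower and 3024 were higher. Treat gave 481 and 950, a fold limit of 1 gave 273 and 1136, and no fold limit gave 3342 and 4405. Lower genes made up 36.1% of calls as reported, 50.2% after quantile normalization and 47.1% with median-of-ratios scaling, whereas they made up 0% of the members' calls in each. The median of the cholesterol enzymes was 0.32 with quantile normalization and 0.32 with median-of-ratios scaling (0.40 as reported). That of the fatty acid genes, 0.10 as reported, was 0.072, 0.022 and 0.14 with quantile normalization, median-of-ratios scaling and rescaling without mitochondrial genes, and 0.0068 to 0.21 without 1 library, lowest without sh-ANP32B library 1 and highest without sh-ANP32B library 2. The cause was not tested.

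Over the genes tested, same-numbered libraries did not deviate together (correlation -0.023). This cannot show whether same-numbered libraries shared a culture or preparation, and the labels do not say. With the replicate number as a block, 12 members were higher and 0 were lower, with 2853 and 1671 over all genes tested. The adjusted p of SREBF2, SCAP and FASN then rose above 0.05. TPM hold no read numbers, so counting error for low genes such as HMGCS1 cannot be given.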

Other observations

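Ratios of TPM between neighbouring enzymes within a library do not change when the whole library is scaled by a single factor. Quantile normalization is not such a scaling and can change them. The pairs below were chosen after their values were seen, and the ratios are descriptions. LSS over SQLE was 0.754 and 0.996 in the controls and 1.93 and 1.87 after knockdown. MVD over PMVK was 1.38 and 1.42 against 3.11 and 3.07. CYP51A1 over LSS was 0.392 and 0.293 against 0.137 and 0.117, with CYP51A1 sharing most of its exonic bases with another gene on the same strand. SQLE over FDFT1, a pair of neighbours that were both not called, was 0.181 and 0.170 against 0.176 and 0.169. DHCR7 over SC5D, neighbours that both rose, stayed between 5 and 5.55 in all 4 libraries. The groups did not overlap for 13 of the 16 ratios between cholesterol enzymes next to each other among those tested. They overlapped for MVK over HMGCS1, SQLE over FDFT1 and EBP over NSDHL. Not all of these pairs are successive steps. HMGCS1 makes HMG-CoA while MVK acts on mevalonate, and HSD17B7, not analysed here, is listed between NSDHL and EBP. For single genes, the groups did not overlap for 12645 of the 16937 tested. That share was not computed for ratios of other genes, so no background is given for the 13.

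SREBF2 over SREBF1 was 0.692 and 0.713 in the controls and 0.812 and 0.788 after knockdown, and FADS2 over FADS1 was 1.83 and 1.77 against 2.13 and 2.12. SCD over FASN was 2.12 and 2.02 against 2.57 and 2.53.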
